A study of Streblospio benedicti with 24 samples.

Results

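The 150 coding genes described here are those whose mRNA varied most from one clutch of oocytes to the next within a morph of the marine annelid Streblospio benedicti. They were chosen by their measured values. Of 26216 genes in the count tables, 6267 coding genes met every condition but the rank, and these are called the pool. Genes of the pool had a mean of at least 5 CPM (counts scaled to the library's sum over genes) over 11 parental libraries, were not among the 100 most abundant genes over all 24 libraries, and had values that overlapped between PP and LL and between PL and LP. Sbene_G10277 and Sbene_G09677 were also left out. The 150 members had the highest mean of both within-morph variances of log2(CPM+1), taken over PP replicates 1 to 6 and LL replicates 1 to 5.

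An oocyte is loaded with mRNA while it grows in the mother, and the early embryo is built with this maternal supply until its own genome is switched on. The abundance of a transcript in unfertilized eggs is thus set in the body of the female, and clutches of different females can carry different amounts of it. In S. benedicti, PP females make many small eggs that become plankton-feeding (planktotrophic) larvae, and LL females make fewer large eggs that become yolk-feeding (lecithotrophic) larvae. The deposited tables do not pair gene identifiers with names or products, so the members are given by identifier and no function is stated for them.

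There were 7 PP libraries from females of the Bayonne, New Jersey population and 7 LL libraries from females of the Long Beach, California population. The 5 PL and 5 LP libraries came from F1 females of reciprocal laboratory crosses, with the maternal allele written first. All females descended from these populations in the laboratory and were reared in isolation, and by the study's Methods each library pooled the whole clutch of a single female. The deposited names of PP5 and PP6 share a stem, and whether these came from separate females is not given. Over the members their deviations from the PP mean correlated with r = 0.175, against -0.475 to 0.0304 in the other pairs of PP replicates 1 to 6. A clutch pools many oocytes, so a lower level in every oocyte and a smaller share of oocytes that carry a transcript cannot be told apart. The oocytes were dissected from the body, and markers of other tissues could not be checked without gene names.

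The libraries held between 7489256 and 43609048 counts on genes, and 12.9% to 37.1% of the tallied reads fell on genes, with the lowest share in PP2. PP7, LL6, LL7 and all 10 F1 libraries carry a label of 2 technical replicates that the other 11 libraries lack. The F1 libraries were sequenced apart from the parental ones, and the reference genome is that of the planktotrophic morph. Libraries are written as the group and the replicate number, so PP3 is PP replicate 3.

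The members were mostly genes of moderate abundance that were nearly silent in some clutches and well expressed in others. Their mean CPM over the 11 libraries had a median of 23.4, against 32.7 in the pool, and ran from 5.13 to 1241. Among PP replicates 1 to 6, the highest clutch exceeded the lowest by a median of 57.1-fold over the 144 members with a count in each, against 3.22-fold in the pool. The same ratio among LL replicates 1 to 5 was 26.3-fold over 136 members, against 2.23-fold in the pool. These ratios describe the values that chose the members, and no test applies to them.

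By a Poisson estimate, counting error was a small part of this spread. The variance expected from Poisson counting alone was a median of 0.33% of a member's measured variance and 0.869% at most. 112 members had counts in each of the 24 libraries, and 38 were at 0 in at least 1 library. A count of 0 adds nothing to the Poisson estimate, which is thus too low for such libraries. Each clutch was 1 library, so differences between females and differences from library preparation cannot be told apart.

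**Figure D1:**
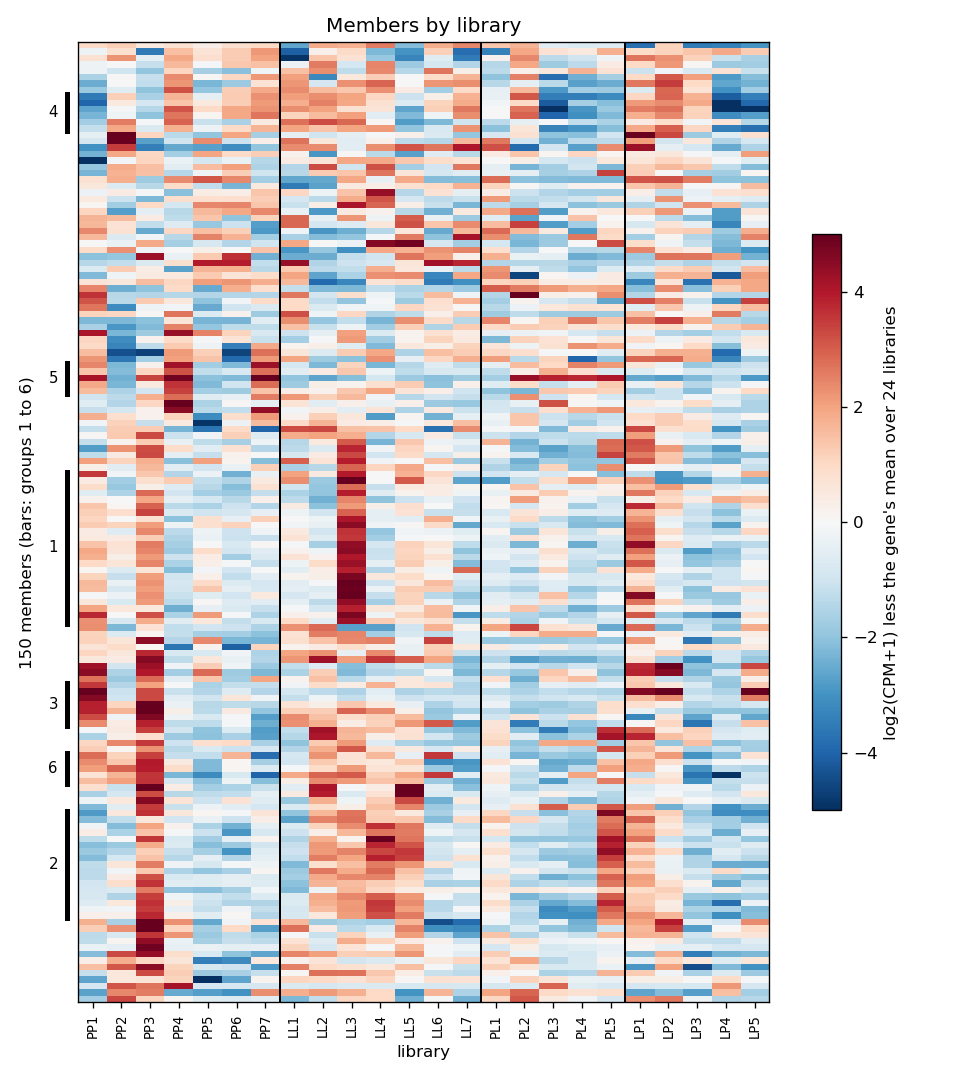
Each row is one of the 150 members and each column one of the 24 libraries, and colour gives log2(CPM+1) less the gene's mean over all libraries. PP3, LL3, PL5 and LP1 hold many of the dark red cells, and the bars at the left mark 6 groups of members that moved together in the 11 parental libraries, holding 64 members.

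Sbene_G01844 had the highest mean variance, 7.02 in squared log2 units. Its level was 548 CPM in PP3, 377 in LL5 and 205 in LL2, and between 1.81 and 20.7 CPM in each of the other parental libraries. The 5 PL libraries held 9.45, 3.07, 5.4, 5.26 and 5.36 CPM and the 5 LP libraries 6.03, 9.67, 9.37, 3.8 and 8.98 CPM. No F1 clutch reached the level of the 3 high parental clutches, and the values of PL and LP overlapped, as the rule required.

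Sbene_G14851 was next, with a variance of 12.1 among LL replicates 1 to 5 and 1.72 among PP replicates 1 to 6. In the LL libraries it was 0.232 to 1232 CPM (median 11.1), the highest being LL3. In the PP libraries it was 1.3 to 17.7 CPM (median 9.21), all of them inside the LL range. Among PL clutches it was 0.104, 2.27, 13.5, 31.4 and 16.7 CPM, and among LP clutches 36.9, 0, 0.0937, 1.3 and 0.646 CPM. LP1 stood above the other LP clutches, one of which had no count.

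Sbene_G19283 was well expressed in most clutches and nearly absent from a few. PP2, PP3 and PP6 held 0.99, 0.619 and 0.667 CPM, while PP1, PP4, PP5 and PP7 held 121, 178, 94 and 280.2. In the LL libraries it was 13.4 to 158 CPM (median 95.8). The PL clutches lay at 84.7, 72.5, 37.6, 41.1 and 26.8 CPM and the LP clutches at 89.6, 142, 140.4, 1.77 and 33.3 CPM. LP4 was thus the only F1 clutch with a level near that of the 3 low PP clutches.

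Sbene_G12796 had 2 separate levels in PP and in PL, and only the low level in LL and LP. PP1, PP3, PP4 and PP7 held 127, 74.5, 204 and 257 CPM, whereas PP2, PP5 and PP6 held 0.381, 0.762 and 0.572. In the LL libraries it was 0.164 to 2.94 CPM (median 0.85). The PL clutches held 1.25, 146, 103, 98.6 and 117 CPM and the LP clutches 0.238, 0.0667, 0.562, 1.68 and 0 CPM. All LL and LP clutches and 1 PL clutch were therefore in the range of the 3 low PP clutches or within a few CPM of it.

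Sbene_G18668 had high and low clutches in all 4 groups, which overlapped, as the rule required of PP with LL and PL with LP. It was 0.262 to 84 CPM (median 48.8) in PP and 3.47 to 88.1 CPM (median 37.3) in LL. Its PL values were 78.5, 6.28, 39.2, 0.175 and 3.69 CPM. The LP clutches held 136, 138, 65.9, 0.907 and 4.31 CPM, with LP1 and LP2 the highest of all libraries.

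Sbene_G23277 was at 0 in LL1, LL2 and PL4. Its PP values were 0.0447 to 105 CPM (median 3.44), with PP3 and PP6 high, and its LL values were 0 to 34.7 CPM (median 1.81). In the crosses it was 17.8, 3.34, 2.96, 0 and 0.186 CPM in PL and 0.556, 35.1, 33.8, 22.4 and 0.0718 CPM in LP. The groups overlapped throughout, as the rule required of PP with LL and of PL with LP.

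Sbene_G15507 was high in 5 parental libraries and in no F1 library. PP5 and PP6, whose deposited names share a stem, held 47.5 and 45.6 CPM, and LL1, LL6 and LL7 held 61.9, 55.2 and 42.7 CPM. The other 9 parental clutches held at most 4.32 CPM, and the 10 F1 clutches at most 0.646 CPM. Its variance among F1 clutches, 0.0392, was the lowest of any member.

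Sbene_G14845 separated into clutches at about 14 CPM or more and clutches at about 2 CPM or less. PP2, PP3 and PP7 held 44.6, 49.8 and 42.6 CPM, and the other PP clutches at most 0.514. LL5 and LL7 held 0.102 and 1.95 CPM, and the other LL clutches between 16.2 and 37.2. The PL clutches were all high, at 33.1, 64, 15.8, 13.7 and 14.8 CPM. Of the LP clutches only LP4 was high, the values being 0.397, 0.934, 0.281, 23.6 and 1.65 CPM.

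Sbene_G02945 reached 1199 CPM in PP3 and 521 CPM in LP2. Over the PP libraries it was 4.64 to 1199 CPM (median 53.3), and over the LL libraries 0.544 to 104 CPM (median 8.77). The PL clutches held 27.5, 12, 24.8, 5.26 and 125 CPM and the LP clutches 128, 521, 22.9, 16 and 167 CPM. Sbene_G13903, the tenth by rank, was 1.99 to 77 CPM (median 8.35) in PP and 0.461 to 95.5 CPM (median 9.75) in LL. It was 3.01, 6.28, 8.3, 3.24 and 2.29 CPM in PL and 12.2, 17.3, 7.97, 14.5 and 2.73 CPM in LP, a narrower range than in either morph.

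**Figure D2:**
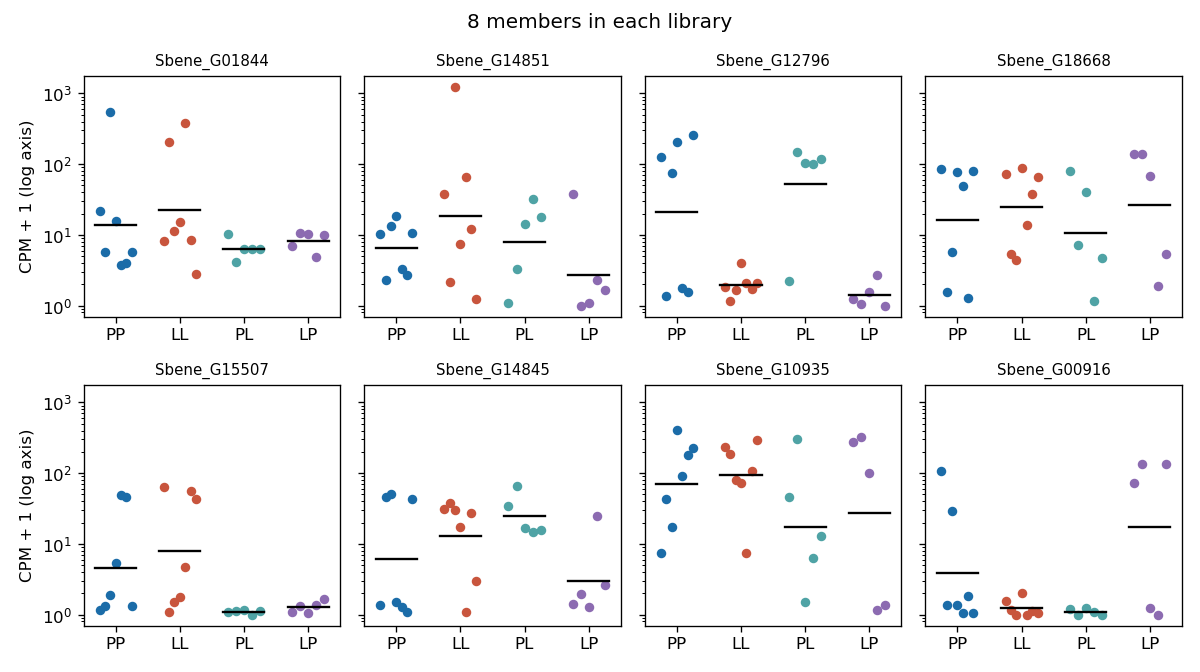
Each point is 1 library, the vertical axis gives CPM + 1 on a log axis, and the black line is the geometric mean of the group (n = 7, 7, 5 and 5 for PP, LL, PL and LP). Sbene_G12796 has a high and a low level in PP and PL and only the low level in LL and LP, while Sbene_G15507 is high in 5 parental clutches and at most 0.646 CPM in every F1 clutch.

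The members differed in which morph carried the spread. Variance was above 2 in both morphs for 62 members. It was above 2 in PP and under 1 in LL for 31 members, and the converse held for 9. Counts at these limits are not given for the pool. Both variances ranked the members, so these and the following counts are descriptions. The PP variance exceeded the LL variance in 83 of 150 members (55.3%), while it did so in 69.8% of the pool. The median variance of the members was 3.3 in PP and 2.84 in LL, against 0.351 and 0.20 in the pool. Without PP3 the count of members with the larger variance in PP was 67, and without LL3 it was 102.

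The largest excess of PP over LL variance was in Sbene_G12796 and Sbene_G19283, described above, and in Sbene_G08449. Sbene_G08449 was 314 CPM in PP3 and 59.9 in PP1, with 0.536 to 314 CPM (median 2.26) over the PP libraries. Its LL values were 0.408 to 9.41 CPM (median 3.93). The PL clutches held 2.28, 0.267, 0.198, 0.438 and 6.51 CPM and the LP clutches 6.19, 4.13, 0.469, 0.734 and 1.22 CPM, none of them near PP1 or PP3.

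The largest excess of LL over PP variance was in Sbene_G14851, Sbene_G08788 and Sbene_G03067. Sbene_G08788 was 575 CPM in LL3 and at most 16.6 CPM in the other LL clutches. Its PP values were 2.77 to 38.8 CPM (median 5.64). In PL it was 4.57, 3.34, 21.2, 2.01 and 6.7 CPM and in LP 196, 6.53, 1.22, 1.21 and 5.46 CPM, with LP1 far above the rest.

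Sbene_G03067 showed the reverse pattern to Sbene_G12796, with all PP and PL clutches high and both levels in LL and LP. It was 31.7 to 101 CPM (median 62.5) in PP. LL1, LL4 and LL5 held 67.5, 34.1 and 39.4 CPM, and LL2, LL3, LL6 and LL7 held 0.491, 1.26, 0.952 and 1.62. Its PL values were 45.4, 49.4, 27.3, 27.2 and 27.1 CPM. Among LP clutches, LP1 and LP3 were low and the others high, at 1.27, 33.5, 0.656, 71.5 and 82.2 CPM.

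The F1 clutches did not enter the variance that ranked the members, so their spread is a measurement in other females. Of 150 members, 107 (71.3%) had a mean of the PL and LP variances above the 90th percentile of the pool, 1.26, which 10% of the pool exceeds by construction. 144 of 150 lay above the pool's median. The median SD among F1 clutches, as the square root of the mean variance, was 1.6 log2 units for the members and 0.548 for the pool. The count stayed between 98 and 111 when each F1 library was left out in turn, with 98 without LP1. The rule's condition that PL and LP overlap held for all genes of the pool, members or not. The F1 libraries share the sequencing run and the label of 2 technical replicates, and the spread was taken within each cross.

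**Figure D3:**
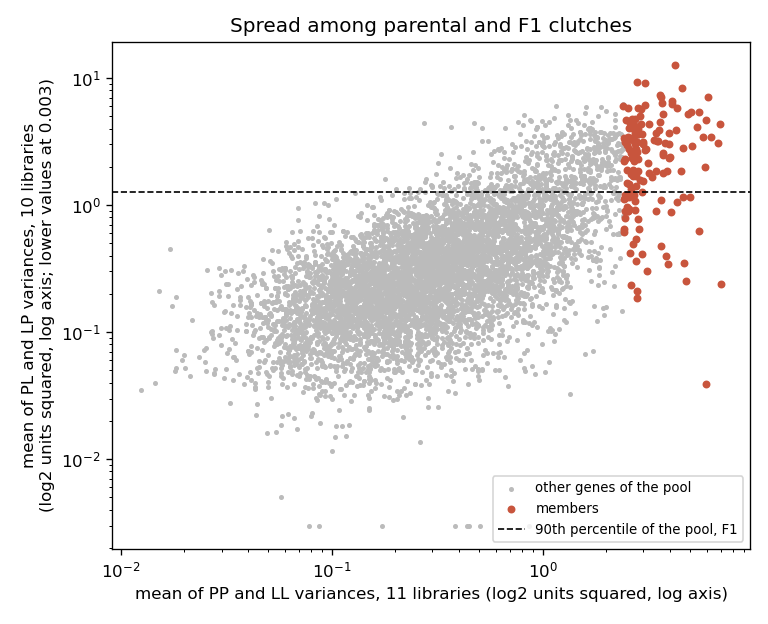
Each point is a gene of the pool, with the mean of its PP and LL variances in 11 libraries on the horizontal log axis and the mean of its PL and LP variances in 10 libraries on the vertical log axis (squared log2 units). The members are red and start at 2.41 on the horizontal axis by the rule, and 107 of them lie above the dashed line, the 90th percentile of the pool among F1 clutches.

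The members with the largest F1 variance were Sbene_G10935, Sbene_G01539, Sbene_G07833 and Sbene_G05206. Sbene_G10935 was 45.1, 301, 0.494, 5.26 and 11.8 CPM in PL and 276, 318, 101, 0.173 and 0.359 CPM in LP. In PP it was 6.43 to 410.3 CPM (median 89), and in LL 6.5 to 289 CPM (median 105). PL3, PL4, LP4 and LP5 thus lay below every parental clutch, while PL2, LP1 and LP2 lay within the parental range.

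Sbene_G01539 and Sbene_G07833 followed the same clutches. Sbene_G01539 was 48.8, 104, 2.04, 16.3 and 11.3 CPM in PL and 233, 279, 201, 0.0863 and 2.59 CPM in LP. Its parental levels were 2.45 to 234 CPM (median 76) in PP and 33.1 to 312 CPM (median 191) in LL. Sbene_G07833 was 14.2, 169, 0.823, 0.788 and 1.27 CPM in PL and 40.2, 146, 66.1, 0.13 and 0.862 CPM in LP. In the parental libraries Sbene_G07833 was 0.722 to 95.4 CPM (median 44.3) in PP and 8.4 to 97.9 CPM (median 64.6) in LL. LP4 was the lowest LP clutch for both genes, and LP2 the highest.

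Sbene_G05206 differed from these. PP2 held 274 CPM and every other PP clutch at most 5.09 CPM, whereas LL3 held 15.2 CPM and the other LL clutches between 119 and 397. The PL clutches held 225, 0.668, 11.4, 2.63 and 121 CPM and the LP clutches 479.8, 15.9, 12, 3.19 and 7.33 CPM. PL1, PL5 and LP1 were in or above the range of the 6 higher LL clutches.

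Some clutches carried the high values of many members at once. PP3 was the highest of PP replicates 1 to 6 for 73 of 150 members, followed by PP4 with 30, PP1 with 22 and PP2 with 14, and PP5 and PP6 were highest for 6 and 5. Among LL replicates 1 to 5, LL3 was highest for 51 and LL1 lowest for 45. In the crosses, PL2 was the highest PL clutch for 42 members and PL5 for 40, and LP1 was the highest LP clutch for 70 and LP4 the lowest for 71. PP replicates 1 to 6 and LL replicates 1 to 5 also ranked the members, so their counts are descriptions. None of these counts is given for the pool, so they do not set the members apart from other genes.

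The share of all counts on genes that fell on the members was 2.97% in PP3, 1.43% in LL3 and 1.18% in LL2, and 0.189% in LP4, the lowest. In the crosses it was highest in LP2, LP1 and PL5, at 0.942%, 0.91% and 0.819%. PP3, the deepest library, held 43609048 counts on genes and gave the members 2.97% of them. PP6 held 41956126 and gave them 0.318%. PP2, the library with the lowest share of reads on genes, gave them 1.04%. The part of depth and of the share of reads on genes in these values was not tested.

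For each gene, the squared deviations of log2(CPM+1) from the morph means were summed over the 11 libraries, and 1 library held over 50% of this sum in 23 of 150 members (15.3%), a share close to the 19.8% of the pool. These are the libraries that chose the members, so the count is a description. It was 43 without PP3, 36 without PP1, 36 without LL1 and 35 without PP4. The library with the largest squared deviation was PP3, above its morph's mean, for 38 members, and LL3, above the mean, for 24. PP4 led upwards for 14 members, and LL1 led downwards for 11. With the rank repeated without PP3, 116 of the 150 members stayed among the top 150, and without LL3, 117 did.

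Members that rose and fell together among parental clutches often did so among F1 clutches. Over the 11175 pairs of members, the Pearson correlation of log2(CPM+1) in the 11 parental libraries, centred by morph, was above 0.8 in 398 pairs. In the 10 F1 libraries, centred by cross, these pairs had a median r of 0.754. Of them 364 (91.5%) had an F1 r above 0, beside 69.1% of all member pairs. Over all member pairs the median F1 r was 0.221, and over pairs of the pool with a parental r above 0.8 it was 0.46. The 20 member pairs with a parental r below -0.8 had a median F1 r of 0.237, so opposite movement did not carry over in the same way.

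Across all member pairs, the parental and the F1 correlations were themselves related with r = 0.27, and across all pairs of the pool with r = 0.218. Pairs share genes and libraries and are not independent, so these correlations are descriptions. The pair with the highest parental r was Sbene_G01799 and Sbene_G05946, at 0.979 over 11 libraries and 0.927 over the 10 F1 libraries. The pair with the lowest was Sbene_G13903 and Sbene_G14465, at -0.958 and -0.75.

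Sbene_G01799 was 93.1 CPM in PP3 and 3.14 to 93.1 CPM (median 5.82) over the PP libraries. It was 2.17 to 56.8 CPM (median 22.8) in LL, 15, 3.47, 0.922, 1.49 and 79.2 CPM in PL and 42.6, 11.5, 3.61, 1.99 and 1.36 CPM in LP. Sbene_G05946 was 2.27 to 76.8 CPM (median 3.44) in PP, 0.567 to 19.8 CPM (median 11.2) in LL, 11.4, 1.2, 1.68, 1.31 and 38.9 CPM in PL and 23.9, 10.1, 6.33, 0.0863 and 1.87 CPM in LP. PP3, PL5 and LP1 were the highest clutch of their group for both genes.

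Sbene_G14465 was high in several parental clutches where Sbene_G13903 was low. It was 0.402 to 23.9 CPM (median 3.07) in PP and 0 to 76.3 CPM (median 0.472) in LL. In LL5, Sbene_G14465 held 26.4 CPM and Sbene_G13903 0.461, and in LL2 they held 0 and 95.5 CPM. In the crosses Sbene_G14465 was 21.7, 0, 0.23, 27.2 and 7.75 CPM in PL and 0.397, 4.0, 0.609, 0.0432 and 23.8 CPM in LP.

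**Figure D4:**
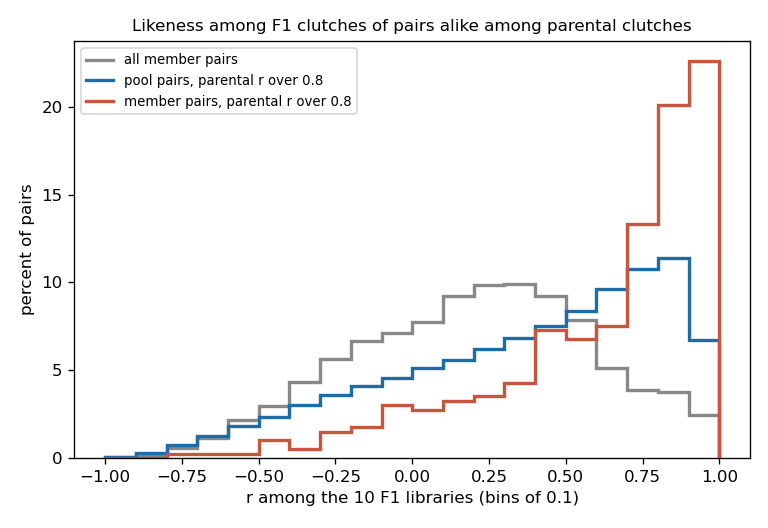
The lines give the percent of pairs in bins of 0.1 of the correlation among the 10 F1 libraries, for all 11175 member pairs, for the 398 member pairs with a parental r over 0.8 and for pool pairs with a parental r over 0.8. The member pairs alike among parental clutches peak in the bin nearest 1, with a median of 0.754, against 0.221 over all member pairs.

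Average linkage of the members on 1 - r in the 11 parental libraries, cut at 0.3, gave 6 groups of at least 5 members that together held 64 members. The other 86 members were in smaller groups or alone. The cut and the smallest size were chosen after the values were seen, so the groups are descriptions, and only their behaviour in the F1 libraries and in PP7, LL6 and LL7 is separate from how they were made. Levels of a group are given as geometric means of CPM + 1 over its genes.

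The first group held 24 members and was led by Sbene_G14851 and Sbene_G08788. Its level was 129.96 in LL3, 27.3 in PP3 and 16.6 in PP1, and between 3.23 and 11.7 in the other libraries of the 11. In the crosses LP1 stood out at 29.6, and the other 9 F1 clutches lay between 3.04 and 7.25. The median r of its 276 gene pairs was 0.628 among the F1 libraries, with 237 pairs above 0 and a lowest r of -0.65. PP7, LL6 and LL7 held 5.3, 9.62 and 3.41.

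The second group held 17 members, with Sbene_G19713 leading and Sbene_G01799 and Sbene_G05946 among them. It was 57.3 in PP3 and at most 6.96 in the other PP libraries of the 11, and 3.65 in LL1 against 29.1 to 70.8 in LL2 to LL5. Among PL clutches it was 86.2 in PL5 and 13.3 or lower in the rest, and among LP clutches 31.2 in LP1 and 13.5 or lower in the rest. All 17 genes were above the cross mean in PL5 and in LP1. The F1 r was above 0 in all 136 pairs, with a median of 0.895. LL6 and LL7 held 5.17 and 7.08, between LL1 and the other LL clutches.

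The third group held 7 members, led by Sbene_G08449. PP1 and PP3 were at 88.6 and 114, and the other PP libraries of the 11 at 5.97 or lower. LL1 to LL5 were close to each other, from 7.36 to 11.5. The F1 clutches ranged from 1.84 in LP3 to 15.6 in LP2, and the median F1 r of its 21 pairs was 0.443. The F1 r was above 0 in 16 of these pairs, and the lowest was -0.403.

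The fourth group held 6 members, Sbene_G13903, Sbene_G10935, Sbene_G05508, Sbene_G07833, Sbene_G01539 and Sbene_G17229. It was lowest in PP1 and LL5, at 4.21 and 6.73, and highest in PP4 and LL2, at 121 and 114. The F1 clutches split widely. PL2, LP1, LP2 and LP3 held 77.8, 78.1, 130.3 and 54.8, and PL3, PL4, PL5, LP4 and LP5 held 2.49, 4.28, 5.54, 2.21 and 2.38, with PL1 between at 15.9. The F1 r was above 0 in all 15 pairs, with a median of 0.92, and 3 of the 4 members with the largest F1 variance belonged to it.

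The fifth group held 5 members, led by Sbene_G12796. It was 94.5 in PP4, 31.9 in PP1 and 11.6 in PP3, and PP7, which had no part in forming the group, held 64.5. PP2, PP5 and PP6 held 1.5, 1.91 and 2.17. PL2 to PL5 ranged from 12.9 to 19.9, and PL1 and the LP clutches from 2.03 to 3.92. The median F1 r of its 10 pairs was 0.362, with 8 pairs above 0 and a lowest r of -0.222.

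The sixth group held 5 members, led by Sbene_G03636 and Sbene_G03637. It was 704 in PP3 and 11.9 in PP5, and from 56.1 to 209 in LL1 to LL5. PP7 and LL7 were low, at 9.75 and 14.1. In the crosses PL5, LP1 and LP2 were highest, at 112, 105 and 99.7, and the F1 r was above 0 in all 10 pairs, with a median of 0.692.

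**Figure D5:**
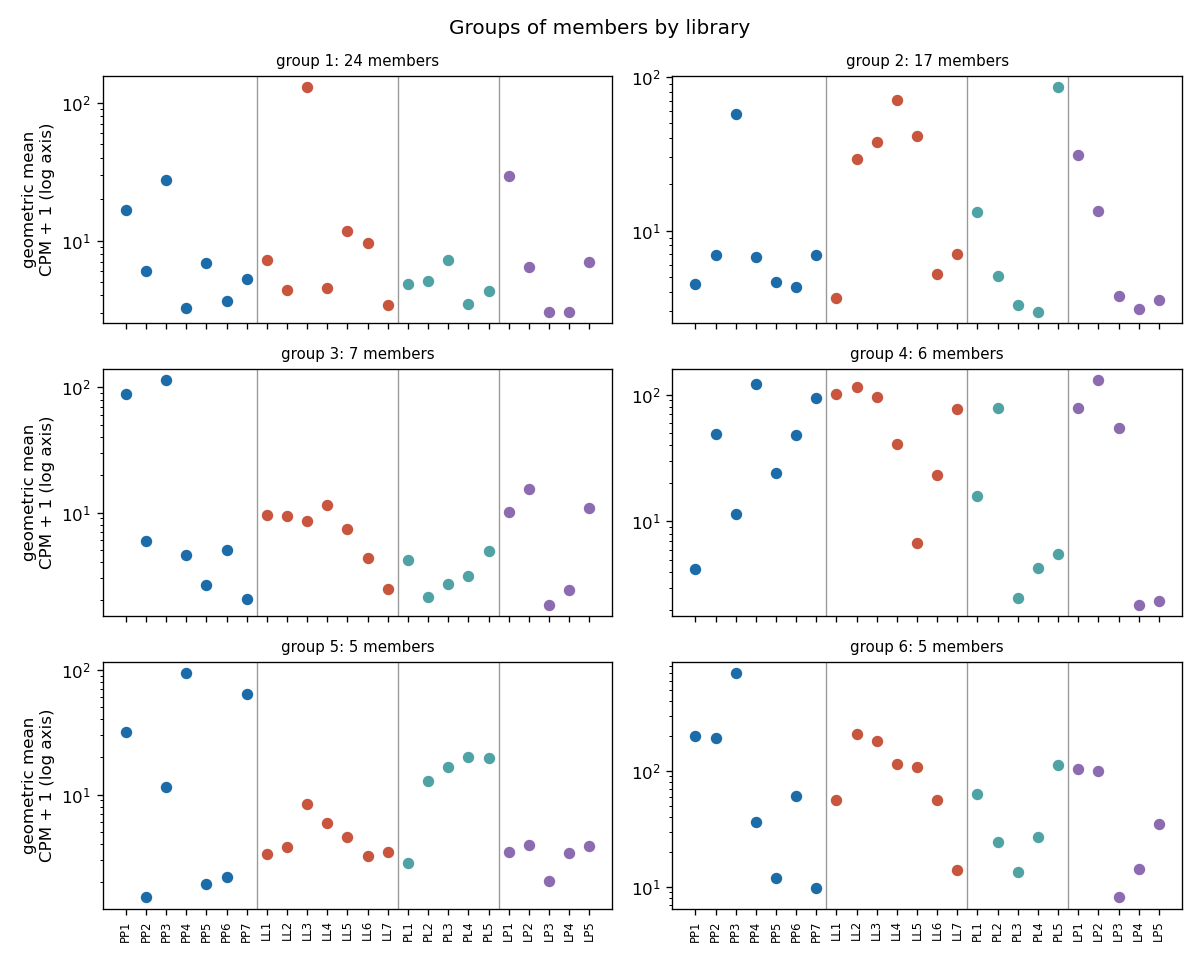
Each panel is one of the 6 groups of members, each point a library coloured by PP, LL, PL or LP, and the vertical log axis gives the geometric mean of CPM + 1 over the group's genes. The first group peaks in LL3 at 129.96, the second is high in PP3, LL2 to LL5, PL5 and LP1, and the fourth is split among F1 clutches between 2.21 and 130.3.

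Expression at 2 levels, as in Sbene_G12796, was counted over the members. A gene was counted when its sorted values over the 24 libraries had a gap above 2 on the log2(CPM+1) scale with at least 3 libraries on each side, a definition chosen after the values were seen. It held for 15 of 150 members and for 31 genes of the pool (0.495%), members included. A high variance makes a wide gap possible, and 11 of the 24 libraries also ranked the members, so the share is no test. With a gap of 1 the count was 61 and with a gap of 3 it was 5.

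Sbene_G00916 and Sbene_G10144 were high in the same 5 clutches, PP1, PP3, LP1, LP2 and LP5. Sbene_G00916 held 107 and 27.9 CPM in PP1 and PP3, and at most 0.858 in the other PP clutches. In LL it was 0 to 1.03 CPM (median 0.136), and in PL 0.208, 0, 0.23, 0.0876 and 0 CPM. The LP clutches held 70.8, 132, 0.234, 0 and 135.2 CPM, so LP1, LP2 and LP5 were at or above the PP3 level and LP3 and LP4 at the low level. The paper lists Sbene_G00916 as exclusive to PP eggs, by group means, and as highly expressed in F1 eggs. In these values the high PP clutches were PP1 and PP3, and no PL clutch was high.

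Sbene_G10144 held 85 and 88 CPM in PP1 and PP3 and at most 9.77 in the other PP clutches. Its LL values were 0.0468 to 1.96 CPM (median 0.877). The PL clutches held 2.28, 1.34, 0.757, 1.31 and 0.744 CPM and the LP clutches 60.9, 136, 0.141, 0.0432 and 45.5 CPM. The low and the high level of this gene were less far apart than those of Sbene_G00916.

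Members with neighbouring identifiers were few. Only 12 pairs of members had identifiers within 10 of each other, and 3 had consecutive ones. Sbene_G03636 and Sbene_G03637 had an r of 0.754 in the parental and 0.794 in the F1 libraries, and Sbene_G09138 and Sbene_G09139 had 0.679 and 0.687. Sbene_G10189 and Sbene_G10190 were unlike each other, at -0.01 and 0.116. Sbene_G21020 and Sbene_G21024 had 0.97 and 0.963. Whether close identifiers mark neighbouring or duplicated genes, whose reads a counter could split, is not given in the sources used here.

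The parental libraries PP7, LL6 and LL7 did not enter the ranking and carry the label of technical replicates. PP7 lay within the range of PP replicates 1 to 6 for 106 members, below it for 30 and above it for 14, against 12.7% below and 17.8% above in the pool. LL6 lay below the range of LL replicates 1 to 5 for 30 members and above it for 9, against 19.4% and 18.9% in the pool. LL7 lay below for 49 members and above for 12, against 23.3% and 19.6%. The range of members is wider by the rule, which also set its minimum mean CPM on the unlabelled libraries, so no test is given for these counts.

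Labelled and unlabelled parental libraries were then compared over all genes. The 11 unlabelled libraries ranked the members and set their minimum mean CPM, so the members' counts and median in this comparison are descriptions, and nothing is read from them. With edgeR's quasi-likelihood test, 0 of 148 members that passed its filter were called (adjusted p of 0.05 or less and fold change over 1.5), beside 0.767% of the 9392 genes tested. Before adjustment 28 members had a p under 0.05, beside 11.6% of the genes. DESeq2 called 18 of the 138 members to which it gave a p, all lower in the labelled libraries. Beside them, 1.67% of its genes were called lower and 1.08% higher. DESeq2 shares here and below are over all genes with a p from it, 17641 in this comparison. Their base thus also holds genes of low counts outside edgeR's filter, and the 2 tools' shares are on unlike bases. The median log2 fold change of the members was -1.54, labelled less unlabelled, while that of all genes tested was -0.01. Without PP3 the edgeR count was 4, beside 60 genes called higher and 65 lower of 9482. Without PP5 it was also 4, beside 48 genes called higher and 72 lower of 9664.

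F1 oocytes were compared with parental oocytes, with the label as a covariate. All 10 F1 libraries carry the label, so its effect was estimated from PP7, LL6 and LL7 against the other parental libraries. The contrast therefore leans on these 3 labelled parental libraries. The unlabelled parental libraries in this fit ranked the members and set their minimum mean CPM, so the members' counts and median are descriptions. No member was called by edgeR (0 of 150, adjusted p under 0.1 and fold change over 1.5), nor was any of the 10782 genes tested (0%). Before adjustment 16 members had a p under 0.05, as had 6.19% of the genes. DESeq2 called 6 of 149 members, 5 higher and 1 lower in F1 oocytes, beside 0.185% of its genes called higher and 0.159% called lower. Without PP7 edgeR called 1 member, beside 2 genes called higher and 4 lower of 10729. The median log2 fold change of the members was 0.37, F1 less parents, and turned to -0.54 without the covariate. Without the covariate edgeR called 4 members, all lower in F1 oocytes, beside 71 genes called higher and 51 lower of 10782. With labelled libraries only, edgeR called 1 of 150 members, lower in F1 oocytes, beside 0.0393% of 12716 genes. The F1 libraries were sequenced apart from the parental ones, so the sequencing run and the cross cannot be told apart.

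Between PP and LL, whose overlap the rule required, edgeR called 2 of 148 members, both higher in PP, beside 3.56% of 9392 genes called in either direction and 1.87% called higher in PP. Sbene_G12796 was higher in PP by 6.42 on the log2 scale (SE 1.33, edgeR adjusted p = 0.0183) and Sbene_G10144 by 5.0 (SE 1.2, edgeR adjusted p = 0.0337). In both genes 3 or more PP clutches were at or near the LL level. DESeq2 called 15 of 150 members, 11 higher and 4 lower in PP, beside 2.6% of its genes called higher and 3.31% called lower. The edgeR count was 9 without PP3 (2 higher and 7 lower in PP), 4 without PP2, 3 without PP4, 1 without PP1 and 1 whichever LL library was left out. With the unlabelled libraries alone edgeR called 0 of 147 members, beside 2.5% of genes, and 25 members had an unadjusted p under 0.05, beside 17.4% of genes. Sbene_G00916 and Sbene_G24081 did not pass the filter on low counts.

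Between the reciprocal crosses edgeR called 0 of 150 members, beside 0.0185% of 10782 genes, and the rule had again required overlap. Before adjustment 18 members had a p under 0.05, beside 7.79% of genes. DESeq2 called 6 of 149 members, 1 higher and 5 lower in PL, beside 0.236% of its genes called higher and 0.339% called lower. Leaving out PL1 or LP2 each gave 1 called member, beside 4 called genes of 11068 without PL1 and 3 of 11079 without LP2.

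The edge of the list was gradual. Sbene_G17229, the last inside, had a mean variance of 2.415 and Sbene_G10184, the first outside, 2.407. Sbene_G17229 was 8.66 to 84 CPM (median 42.6) in PP, 4.66 to 105 CPM (median 85.9) in LL, 4.47, 32.6, 1.22, 1.93 and 4.12 CPM in PL and 82.3, 176, 44.4, 1.08 and 0.646 CPM in LP. Sbene_G10184 was 0.65 to 48.9 CPM (median 3.42) in PP, 6.79 to 50.2 CPM (median 34.1) in LL, 4.15, 275, 46.1, 51.9 and 64.8 CPM in PL and 39.4, 7.13, 31.8, 62.2 and 72.5 CPM in LP. Both varied as widely among F1 clutches as most members, with variances of 6.06 and 2.91.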

How the data were processed

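The mRNA of unfertilized oocytes of S. benedicti was sequenced from 24 clutches, 1 per library, grouped as PP, LL, PL or LP by their titles. TrimGalore trimming, SortMeRNA removal of rRNA, HISAT2 alignment to the planktotrophic genome and HTSeq-count were run by the authors, as their Methods state. The deposited values are raw counts per gene, strand-specific libraries being used. Rows for reads not on genes stayed out of library totals. CPM was the count divided by the sum over genes.

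Tests used edgeR (version 4.0.16, quasi-likelihood, TMM, its own filter) in R (version 4.3.3), on all genes, with Benjamini-Hochberg adjustment. Thresholds were a fold change over 1.5 and an adjusted p of 0.05 or less for parents only, or under 0.1 with F1 libraries. DESeq2 (version 1.42.0) was an alternative, with the median of ratios, other filters, pseudocounts, rules and left-out libraries. PP and LL were compared in their 14 libraries, and F1 contrasts came from all 24 with the label as covariate. By the Methods each library was 1 female's clutch, although PP5 and PP6 share a stem in their deposited names and were also left out together. Spread and likeness were computed in Python (version 3.11.15) and checked on simulated data, as were the fits. By the Poisson estimate, counting error at these depths is below 1% of the members' variance. Variance from library preparation was not measured.

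Named genes were the 10 of highest mean variance, the 3 with the largest PP less LL variance and the 3 with the reverse, the 4 of largest F1 variance, up to 2 called members per direction and contrast, the pairs of highest and lowest r, those beside the edge of the rank and any member the paper's text names, which was Sbene_G00916. Other genes were named after their values were seen. The members, lists and tests were chosen with earlier results of these data known. No gene names or sequences were used here.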

Additional observations from a re-analysis of the deposited data

Results flagged for a closer look

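Each named gene was examined in each group for a single library far from the others of its group, by Dixon's ratio on log2(CPM+1). Chance flags about 1 in 20 groups where genes are not chosen for their spread. These genes were, so the flags are not counted against that rate. PP3 stood above the other PP clutches for Sbene_G01844, at 548 CPM against at most 20.7. It did so for Sbene_G01799, at 93.1 CPM against at most 13, and for Sbene_G05946, at 76.8 CPM against at most 10.8. PP2 held 274 CPM of Sbene_G05206 against at most 5.09 in the other PP clutches. LL3 held 575 CPM of Sbene_G08788 against at most 16.6 in the other LL clutches, and 15.2 CPM of Sbene_G05206 against at least 119. LL5 held 6.5 CPM of Sbene_G10935 against at least 72.4. These PP and LL spreads are among the values that chose the members.

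In the F1 libraries, which did not rank the members but whose variance named 4 of these genes, LP1 held 36.9 CPM of Sbene_G14851 against at most 1.3 in the other LP clutches, and 196 CPM of Sbene_G08788 against at most 6.53. LP4 held 23.6 CPM of Sbene_G14845 against at most 1.65. PL1 held 1.25 CPM of Sbene_G12796 against at least 98.6 in the other PL clutches.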

How the results depend on the processing

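The count of members with wide spread among F1 clutches was 98 to 111 with single libraries left out. That of members with larger variance in PP was 67 to 102. Both counts stayed within 1.5 times of the main count under every alternative tried. The likeness of pairs, r = 0.27 in the main setting, was 0.203 to 0.306 with single libraries left out. It was 0.228 with Spearman correlation for each pair and 0.288 with a pseudocount of 5. Members held by 1 library numbered 24 to 43 with single libraries left out, 45 with a pseudocount of 5 and 0 at a share of 75%. The pool's share was not computed under these settings. Under other rules the share of the 150 members kept was 77.3% to 90% with single libraries left out, 66% with a pseudocount of 5, 46.7% by median absolute deviation, 52.7% with all 7 PP and 7 LL libraries and 52% by variance above the trend with expression, and 26 members were kept under all 20 rules. Called members, F1 against parents, numbered 0 or 1 with single libraries left out and 6 with DESeq2. They numbered 1 without the filter, 4 without the label covariate and 1 with labelled libraries only. Over all genes, edgeR called 0 higher and 5 lower of 19581 without the filter, and 71 and 51 of 10782 without the covariate. For labelled against unlabelled parents the called members numbered 0 to 4, then 18 with DESeq2 and 11 without the filter. They numbered 5 without PP5 and PP6, whose deposited names share a stem. Over all genes, edgeR called 174 higher and 141 lower of 17898 without the filter, and 48 and 76 of 9871 without PP5 and PP6. For PP against LL the called members numbered 1 to 9, then 15 with DESeq2 and 5 without the filter. They numbered 1 with the label as covariate and 0 with unlabelled libraries only (25 at an unadjusted p under 0.05). With all 24 libraries in the fit there were 6, and without PP5 and PP6 there was 1. Over all genes, edgeR called 164 higher and 165 lower of 17898 without the filter, and 179 and 148 of 9392 with the label. It called 305 and 298 of 10782 with all 24 libraries, and 36 and 69 of 9871 without PP5 and PP6. For PL against LP the called members numbered 0 or 1, then 6 with DESeq2, 1 without the filter and 1 without PP5 and PP6. Over all genes, edgeR called 6 higher and 1 lower of 19581 without the filter, and 3 and 0 of 10737 without PP5 and PP6. The cause of these moves was not tested. Sbene_G10144 lost its call in 12 of 24 alternatives and Sbene_G12796 in 2.

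No label ties libraries of the same replicate number to 1 animal or batch. Their deviations over the pool correlated from -0.17 to 0.51 in 12 pairs, 6 of them above 0.1. With the replicate block edgeR called 1 member for PP against LL, lower in PP, in place of Sbene_G12796 (log2 fold change 4.99, edgeR adjusted p = 0.112) and Sbene_G10144 (2.82, edgeR adjusted p = 0.228), and 0 for each other contrast, as without the block. Over all genes, edgeR with the block called 72 higher and 99 lower of 9392 for PP against LL. It called 4 higher and 8 lower of 9392 for labelled against unlabelled parents. With the block the members' median log2 fold change turned to -1.16 for F1 less parents and to 0.19 for labelled less unlabelled parents. Groups of 5 to 7 clutches limit what differences in level can be seen, while counting error by the Poisson estimate is small. Labelled against unlabelled parents, and F1 against parents with the label as covariate, lean on only 3 labelled parental libraries. Among alternatives chosen after seeing the data, the groups held 35 members at a height of 0.2 and 94 at 0.4.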
